A study of Mus musculus with 34 samples.

Results

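The libraries described here are the 4 labelled subtype A, a class of mouse liver tumour, and the 3 labelled sgActin and YAPS127A, their control, together 7 of the 34 libraries of the series. They were chosen by label and not by any measured value. The study asked how liver tumours that arise when an exon of the beta-catenin gene is skipped differ from each other. Per the labels, cancer was modelled by hydrodynamic injection, a way to bring plasmids into hepatocytes, and strand-specific libraries were made of total RNA from frozen tumours. Subtype A and subtype B (9 libraries) are named only as such in the labels, with no vector, guide, strain, sex or age. The control carried sgActin, a guide RNA against an actin gene, and YAPS127A, a form of the transcriptional coactivator YAP that escapes inhibitory phosphorylation. The labels do not say whether the subtype A tumours also carried YAPS127A, nor whether the control livers held tumours. Whether replicates are separate animals is not stated, and the p-values below measure only the spread between these samples, which may be technical.

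A mature hepatocyte breaks down amino acids, makes urea, glucose, bile acids and most plasma proteins, and detoxifies foreign compounds with cytochromes P450. Liver tumours commonly lose part of this programme and gain proliferation, matrix and progenitor genes. YAP acts in the nucleus through the TEAD transcription factors, and beta-catenin through TCF and LEF factors. Both pathways are known to drive liver growth and to shift hepatocytes away from their mature state.

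The values are z-scores of 1659 genes that the depositors selected. Their name for the set calls the genes differentially expressed and lists the beta-catenin isoforms skip1 and skip2 and both subtypes. No source used here gives the criteria. A z-score is a distance from a gene's mean in SDs of that gene, so a difference between groups is in SDs and is not a fold change, and levels of different genes cannot be compared. The values show that the 16 subtype A, control and subtype B libraries shared 1 scaling, which also took in another library not analysed here. If the 3 control libraries stood apart and all other libraries were equal, a gene would differ by 2.54 SD, so most differences below lie near that size by construction. Sequencing depth of these libraries is unknown. Because the genes were selected for deposit, the number that passed a test is not a share of the transcriptome and not independent evidence. The targeted genes could not be checked: Yap1, Ctnnb1 and Actb, the beta-actin gene, were not among the 1659 genes. In bulk tissue, fewer cells of a type and less RNA per cell cannot be told apart.

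On the deposited scale, subtype A tumours lay apart from the control libraries at nearly every selected gene. By limma's moderated test, with subtype B in the fit to estimate the spread and Benjamini-Hochberg adjustment over all 1659 genes, 1614 genes (97.3%) passed an adjusted p of 0.05, and such genes are referred to as called. Of these, 692 (41.7%) were higher and 922 (55.6%) were lower in subtype A than in the control. The 4 subtype A values and the 3 control values did not overlap at 1636 genes (98.6%). These shares are the background for every list below. A list holds only those of its members that are among the 1659 genes, such as 8 of 35 endothelial markers and 15 of 44 pericentral genes. The median difference was 1.91 SD over the higher genes (range 0.77 to 2.88) and -2.25 SD over the lower genes (range -2.68 to -1.08). The median over all genes was -1.99 SD, and it was -0.21 SD after each library was centred on its own median and -0.22 SD after quantile normalization. Relative to that shift, 34 genes changed sign on centring and 72 on quantile normalization. Called genes numbered 1439 on centring (739 higher, 700 lower) and 1079 on quantile normalization (479 higher, 600 lower). Centring moved every subtype A minus control difference upward by the same amount, as for the gene Prom1 from 2.88 to 4.66 SD. A raised gene could therefore not change sign on centring, and its call there is no further support. In every list below, a change of sign on centring could come only from a lowered gene. Within groups the spread was small, with a median SD per gene of 0.194 in subtype A and 0.162 in the control.

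The libraries were not equally close to their group. Subtype A replicate 1 deviated from the mean of the other 3 subtype A libraries by a median of 0.271 SD. The same measure was 0.113 to 0.168 SD for replicates 2, 3 and 4. Replicate 1 lay over 1 SD from the mean of the others at 73 genes, while replicates 2, 3 and 4 did so at 40, 18 and 11 genes. Its limma array weight was 0.298, while those of the other subtype A libraries were 1.529 to 2. Control replicates 1 and 3 also had low weights, 0.151 and 0.323. Without subtype A replicate 1, 1605 genes were called, 683 higher and 922 lower, and without each other library of the 2 groups 1596 to 1608.

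**Figure D1:**
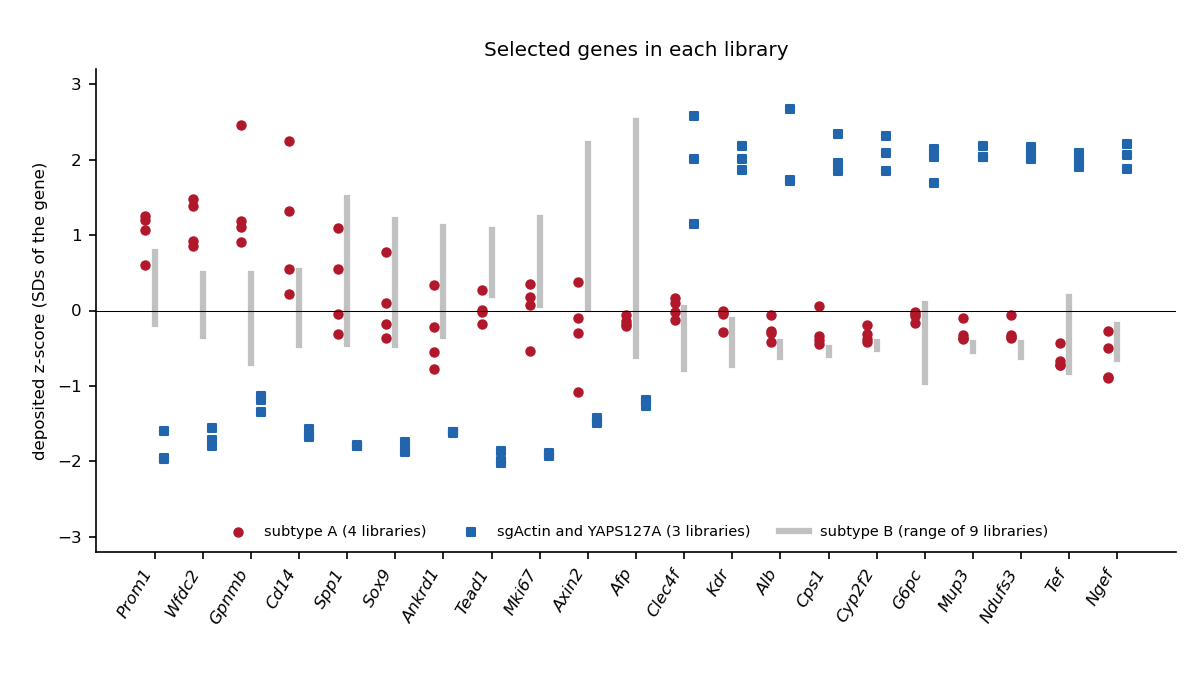
Deposited z-score (vertical axis, SDs of the gene) of selected genes in each of the 4 subtype A libraries (circles) and the 3 sgActin and YAPS127A libraries (squares), with the range over 9 subtype B libraries as a grey bar. Prom1 lay between 0.61 and 1.25 in subtype A and at -1.60 or below in the control, and Ngef lay at -0.27 or below in subtype A and at 1.87 or above in the control.

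The largest positive differences were those of Prom1 and Wfdc2. Prom1, the CD133 membrane glycoprotein known as a progenitor cell marker (chromosome 5, 43993620 to 44102032, mm10), stood at 0.61, 1.07, 1.21 and 1.25 in subtype A and at -1.60, -1.97 and -1.96 in the control. Its mean was 1.03 ± 0.29 in subtype A (SD, n = 4) and -1.84 ± 0.21 in the control (SD, n = 3), a difference of 2.88 SD (SE 0.23, adjusted p = 4.72e-09 in limma). All 4 subtype A libraries were high, and the groups did not overlap. Wfdc2, a secreted whey acidic protein family member of epithelia (chromosome 2, 164562413 to 164568510), stood at 1.48, 0.92, 1.38 and 0.86 in subtype A and at -1.55, -1.80 and -1.71 in the control. The difference was 2.85 SD (SE 0.20, adjusted p = 6.07e-10). Gpnmb, a transmembrane glycoprotein known from macrophages and lysosomal stress, stood at 0.90, 2.45, 1.11 and 1.19 in subtype A and at -1.14, -1.35 and -1.18 in the control. Subtype A replicate 2 was the highest, and the lowest subtype A library was still above every control.

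Other genes with large positive differences fall into a few known roles. Abcb1a encodes an efflux pump for drugs and lipids and stood at 0.64, 0.99, 0.47 and 1.05 in subtype A and at -1.71, -2.23 and -1.95 in the control. Cd14, the lipopolysaccharide co-receptor of macrophages, stood at 0.55, 0.23, 2.24 and 1.32 in subtype A and at -1.67, -1.68 and -1.57 in the control. Its subtype A values were the more scattered, with replicate 3 highest and replicate 2 lowest. Serpina7, the thyroxine-binding globulin of plasma, stood at 0.39, 1.15, 1.59 and 1.22 in subtype A and at -1.58, -1.66 and -1.64 in the control. Tgm2, a transglutaminase that cross-links proteins, differed by 2.71 SD. Pla2g5, a secreted phospholipase A2, differed by 2.69 SD. Vnn1, a pantetheinase that PPAR alpha induces in liver, differed by 2.65 SD, with subtype A replicate 1 at -0.12 and the other 3 at 0.89 to 1.51. Lif, an interleukin-6 family cytokine, also differed by 2.65 SD. Frmpd1 (2.68 SD) and Cfap44, a protein of cilia and flagella (2.65 SD), complete the 12 largest positive differences among the called genes. In 18 other libraries of the series with counts, only Abcb1a, Serpina7, Tgm2 and Vnn1 of these 12 had a mean normalized count of at least 10. The rest had means of 1.62 (Lif) to 6.92 (Prom1), so they were scarce in those libraries. Frmpd1 stood at -1.85 in each control library.

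The largest negative differences included genes of signalling and of daily rhythm. Ngef, a guanine nucleotide exchange factor for small GTPases (chromosome 1, 87476834 to 87573870), stood at -0.50, -0.27, -0.88 and -0.89 in subtype A and at 1.87, 2.06 and 2.20 in the control. It differed by -2.68 SD (SE 0.16, adjusted p = 7.23e-11). Tef, a leucine zipper factor that passes circadian timing on to detoxification genes (chromosome 15, 81802421 to 81826863), stood at -0.67, -0.43, -0.72 and -0.72 in subtype A and at 1.90, 2.08 and 1.99 in the control. Ngef and Tef were both low in every subtype A library. Per3, a circadian repressor, fell likewise, by 2.47 SD, while Arntl, the gene of the clock activator BMAL1, rose by 2.23 SD. Arntl stood at 0.56, 0.27, 1.42 and 0.93 in subtype A and at -1.48, -1.47 and -1.36 in the control. The time of day at which livers were taken is not given, and its part in these values was not tested. Of 13 hepatocyte transcription factors and nuclear receptors, 11 were lower and 2 higher, with 1 change of sign on centring and 1 on quantile normalization. The call for Per3 was lost when libraries were centred on their median (adjusted p = 0.0879).

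Chd3, a chromatin remodeller (-2.59 SD), Lama3, a laminin chain of basement membrane (-2.55 SD), P2ry2, a receptor for extracellular nucleotides (-2.54 SD), and Rbm47, an RNA-binding protein (-2.51 SD), were among the largest falls. So were Ahcyl2 (-2.54 SD), the aldo-keto reductase Akr1c19 (-2.50 SD), and the long RNAs 1700001L05Rik (-2.60 SD) and Mir22hg (-2.49 SD), the host transcript of the microRNA miR-22. Thrsp, a regulator of fatty acid synthesis, stood between -0.46 and -0.42 in subtype A and at 1.70, 1.90 and 2.59 in the control. The subtype A values of Chd3 spanned -0.56 to -0.53, the control values 1.63 to 2.58.

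**Figure D2:**
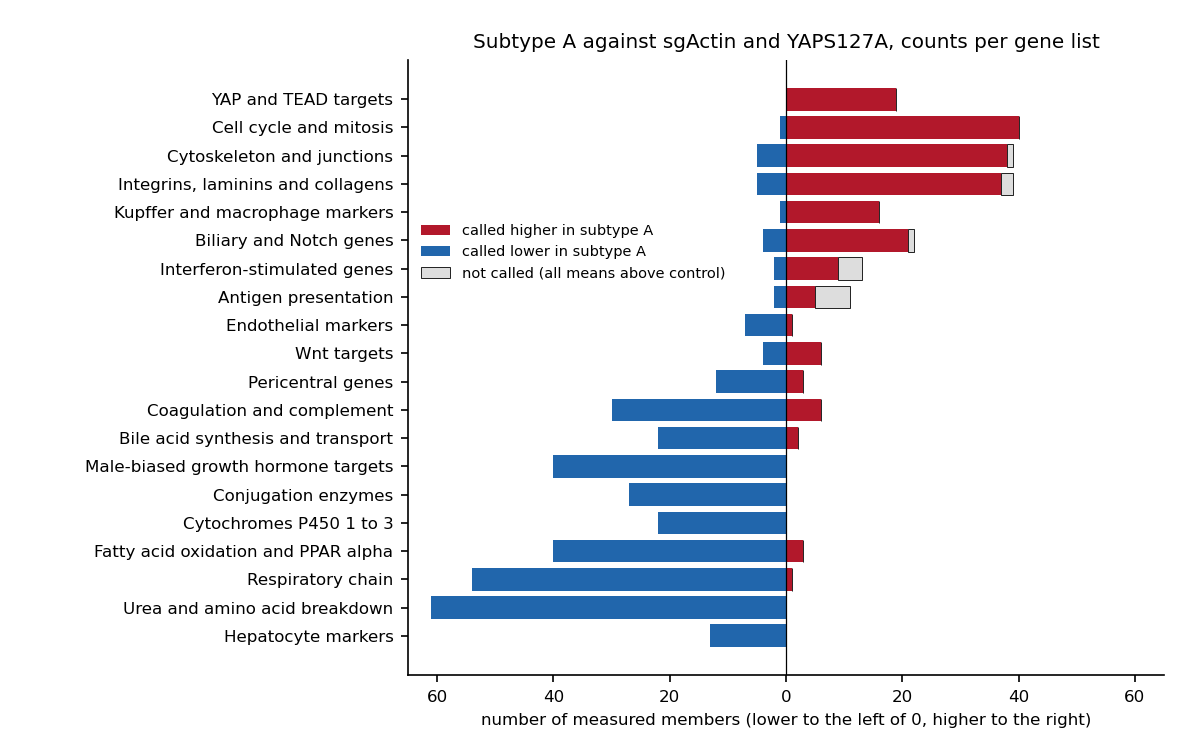
Number of measured members of each gene list (horizontal axis) called higher (right of 0, red), called lower (left of 0, blue) or not called (grey, all with a mean above the control) in subtype A against sgActin and YAPS127A. All 61 urea and amino acid genes were lower and all 19 YAP and TEAD targets higher. Of the lists shown, the median changed sign under another scaling only for interferon-stimulated genes, to -0.05 SD after quantile normalization.

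Hepatocyte function genes fell together. Every one of 13 measured hepatocyte markers was called lower, with a median difference of -2.30 SD, beside -1.99 SD over all genes. After centring, their median was -0.51 SD, beside -0.21 SD over all genes, no member changed sign under either other scaling, and all 13 stayed called on centring and 10 on quantile normalization. Their mean z-score was -0.07, -0.32, -0.29 and -0.23 in subtype A replicates 1 to 4 and 2.09, 1.82 and 2.22 in the control. Alb, serum albumin (chromosome 5, 90460897 to 90476602), stood at -0.06, -0.42, -0.27 and -0.29 in subtype A and at 2.66, 1.72 and 1.73 in the control, a difference of -2.30 SD (SE 0.18, adjusted p = 2.23e-09). Subtype A replicate 1 was the highest of its group and still under every control library.

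All 61 measured genes of urea synthesis and amino acid breakdown were lower, with a median of -2.29 SD (range -2.46 to -1.60). 1 of them changed sign on centring and 2 on quantile normalization. Cps1, the first enzyme of the urea cycle (chromosome 1, 67123026 to 67231259), stood at 0.05, -0.44, -0.34 and -0.40 in subtype A and at 1.84, 1.96 and 2.34 in the control (-2.33 SD, adjusted p = 1.78e-11). Arg1, the arginase that releases urea, stood at -0.16, -0.41, -0.41 and -0.38 in subtype A and at 1.91, 2.11 and 2.23 in the control. In both genes replicate 1 was the highest subtype A library. Tat, tyrosine aminotransferase, differed by -2.33 SD, and Gnmt, which controls the methyl donor S-adenosylmethionine, by -2.40 SD.

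The liver lobule divides these tasks between periportal and pericentral hepatocytes, and genes of both zones were low in subtype A. All 31 periportal genes were lower (median -2.30 SD), with 1 member of another sign on centring and 1 on quantile normalization. Cyp2f2, a periportal cytochrome P450, stood at -0.19, -0.41, -0.38 and -0.32 in subtype A and at 2.09, 1.84 and 2.31 in the control. Of 15 pericentral genes, 12 were lower and 3 higher, with no change of sign under either scaling. Cyp1a2, a pericentral P450 that oxidises aromatic amines, stood at -0.15, -0.29, -0.38 and -0.16 in subtype A and at 1.95, 1.96 and 2.26 in the control. The 3 pericentral genes that rose were Axin2, a feedback inhibitor of Wnt signalling, the amino acid transporter Slc1a4 and the vasopressin receptor Avpr1a. Slc1a4 stood at -0.57, 0.43, 0.55 and 0.56 in subtype A and at -1.95, -2.02 and -1.91 in the control.

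Detoxification genes showed the same direction. All 22 measured cytochromes P450 of families 1 to 3 were lower (median -2.28 SD), as were 27 of 27 conjugation enzymes (median -2.24 SD), 12 of 12 carboxylesterases (median -2.35 SD) and 21 of 23 flavin monooxygenase and aldehyde genes. Of 12 other cytochromes P450, 10 were lower and 2 higher. In each of these 5 lists, 1 member changed sign on centring and 1 or 2 on quantile normalization. Cyp3a11, the main drug-metabolising P450 of mouse liver (chromosome 5, 145854426 to 145879964), stood at -0.26, -0.34, -0.38 and -0.24 in subtype A and at 2.38, 1.54 and 2.26 in the control (-2.36 SD, adjusted p = 9.48e-11). Cyp2c29 stood at -0.20, -0.40, -0.39 and -0.34 in subtype A and at 2.25, 1.88 and 2.13 in the control. The spread within subtype A was a small part of the distance to the control for both.

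Promoters of both directions are shown because each holds a motif of a liver or growth factor. They are from the RefSeq table of GRCm38.p6 and run from 250 bases before to 50 bases after the start listed there. The first pair belongs to lowered hepatocyte genes and the second to raised TEAD targets. Capitals mark only the motif named for each promoter. Other motifs can occur unmarked, as CTTTGAT, a motif of TCF and LEF, does in that of Amotl2. Positions count from that listed start, which can differ from the GENCODE gene start. The Ankrd1 and Amotl2 promoters lie wholly within the GENCODE loci of these genes (36111961 to 36120099 and 102716672 to 102733418). Their TEAD matches are thus not upstream of the GENCODE gene starts. The Alb promoter (chr5:90460620-90460919, plus strand) holds the HNF1 motif GTTAATNAT at position -32, and that of Cyp3a11 (chr5:145879805-145880104, minus strand) the HNF4 motif CAAAGTCCA at position -109. The Ankrd1 promoter (chr19:36119795-36120094, minus strand) holds the TEAD motif GGAATG at 2 places, the first at position -210 from the start, and that of Amotl2 (chr9:102717554-102717853, plus strand) holds it on the other strand, read CATTCC, at position -65.
Alb: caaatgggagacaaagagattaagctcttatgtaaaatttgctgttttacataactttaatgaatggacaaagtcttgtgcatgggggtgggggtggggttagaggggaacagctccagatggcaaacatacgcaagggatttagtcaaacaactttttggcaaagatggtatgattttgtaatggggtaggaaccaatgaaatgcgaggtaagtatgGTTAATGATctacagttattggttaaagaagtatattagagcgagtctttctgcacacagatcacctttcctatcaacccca
Cyp3a11: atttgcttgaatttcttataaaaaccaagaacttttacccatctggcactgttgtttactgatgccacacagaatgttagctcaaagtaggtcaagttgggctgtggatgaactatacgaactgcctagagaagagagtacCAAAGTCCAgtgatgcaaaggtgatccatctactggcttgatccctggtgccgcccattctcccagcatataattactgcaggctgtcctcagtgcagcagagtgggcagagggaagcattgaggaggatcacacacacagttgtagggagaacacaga
Ankrd1: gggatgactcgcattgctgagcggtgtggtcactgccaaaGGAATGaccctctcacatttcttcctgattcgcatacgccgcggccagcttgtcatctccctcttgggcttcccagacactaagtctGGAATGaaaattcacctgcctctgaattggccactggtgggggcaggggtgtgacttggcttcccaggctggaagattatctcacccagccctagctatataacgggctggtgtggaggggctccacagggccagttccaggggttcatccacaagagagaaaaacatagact
Amotl2: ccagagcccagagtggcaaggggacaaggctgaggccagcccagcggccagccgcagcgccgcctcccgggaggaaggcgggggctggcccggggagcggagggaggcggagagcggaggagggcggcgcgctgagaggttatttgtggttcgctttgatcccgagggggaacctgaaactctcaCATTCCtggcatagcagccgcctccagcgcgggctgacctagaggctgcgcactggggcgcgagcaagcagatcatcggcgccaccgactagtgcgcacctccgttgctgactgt
Searched on both strands of all 27025 promoters of that table, the HNF1 motif was in 0.836%, the HNF4 motif in 0.477% and the TEAD motif in 14.6%. A match is a run of letters and not a shown binding site. Only 77.8% of the 1659 genes had an entry, so a comparison of motif shares between gene groups is void. Among the genes with an entry, the TEAD motif was in 74 of 527 higher genes and in 103 of 737 lower genes. The HNF1 motif was in 0.759% of the higher and 2.04% of the lower genes, and the HNF4 motif in 0.38% and 1.49%. No conclusion is drawn from these shares.

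Energy metabolism genes were low as well. Of 55 respiratory chain genes, 54 were lower and 1 higher (median -2.27 SD), with no change of sign under either scaling. Ndufs3, a subunit of complex I, stood at -0.06, -0.35, -0.36 and -0.33 in subtype A and at 2.17, 2.00 and 2.06 in the control. Ndufb10, also of complex I, stood between -0.36 and -0.15 in subtype A and between 1.94 and 2.23 in the control. The member that rose was Ucp2, a carrier of the inner mitochondrial membrane, at 0.33, 0.25, 0.30 and 0.19 in subtype A and at -2.18, -1.99 and -1.91 in the control. Of 43 genes of fatty acid oxidation and PPAR alpha, 40 were lower and 3 higher, with 3 changes of sign on centring and 5 on quantile normalization. The 3 that rose were Vnn1, Acot2, a mitochondrial acyl-CoA thioesterase, and Slc27a1, a fatty acid transport protein. Acot2 stood at -0.16, 1.13, 1.09 and 1.38 in subtype A and at -1.58, -1.74 and -1.72 in the control. The call for Slc27a1 was lost after quantile normalization (adjusted p = 0.481).

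Of 13 gluconeogenesis and glycogen genes, 11 were lower and 2 higher, with 1 change of sign on centring. G6pc, the liver enzyme that releases free glucose, stood at -0.02, -0.05, -0.17 and -0.07 in subtype A and at 2.04, 1.69 and 2.15 in the control (-2.04 SD, adjusted p = 1.36e-07). Its call was lost on centring (adjusted p = 0.285) and on quantile normalization (adjusted p = 0.752). Of 8 glycolysis genes, 4 were lower and 4 higher, and the list median was -0.21 SD, 1.57 SD after centring and 0.21 SD after quantile normalization. Pkm, the pyruvate kinase that tumours use, stood at 0.48, -0.05, 0.19 and 0.16 in subtype A and at -1.93, -2.02 and -1.76 in the control. Slc16a1, the lactate transporter MCT1, differed by 2.60 SD. Pgk1 and Gapdh, which act midway in glycolysis, differed by -2.27 and -2.13 SD, and the call for Gapdh was lost on quantile normalization (adjusted p = 0.149). The cholesterol and fatty acid synthesis list had 14 lower, 1 higher and 2 not called of 17, with 3 changes of sign on centring and 2 on quantile normalization.

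Growth hormone sets the sex difference of mouse liver, and its male-biased targets fell in subtype A. All 40 were lower (median -2.27 SD), but 4 of them changed sign on centring and 3 on quantile normalization. Ghr, the growth hormone receptor, stood at -0.10, -0.32, -0.40 and -0.32 in subtype A and at 2.31, 1.94 and 1.98 in the control. Nudt7, a peroxisomal hydrolase of coenzyme A, stood between -0.40 and -0.21 in subtype A and between 1.99 and 2.19 in the control. All 16 major urinary protein genes, which encode pheromone carriers, were lower, although after centring 6 were called lower and 1 higher. Their mean z-score was -0.11, -0.34, -0.30 and -0.18 in subtype A and 1.12, 1.96 and 2.70 in the control. The control libraries thus differed among themselves, with replicate 1 lowest and replicate 3 highest. Mup3 stood at -0.10, -0.37, -0.37 and -0.33 in subtype A and at 2.18, 2.03 and 2.04 in the control. These genes are near-identical copies, and counts may be shared between them. Of 13 female-biased genes, 8 were higher, 4 lower and 1 not called, with 1 change of sign on centring and 1 on quantile normalization. The sex of the animals is not given, and its part in these values was not tested.

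Plasma proteins were mostly low. Of 25 apolipoprotein and lipoprotein genes, 22 were lower and 3 higher, with 1 change of sign on quantile normalization. Apoa2, of high-density lipoprotein, differed by -2.28 SD. Lpl, lipoprotein lipase, stood at 0.31, 0.90, 0.48 and 0.70 in subtype A and at -1.92, -1.87 and -1.88 in the control. Of 36 coagulation and complement genes, 30 were lower and 6 higher, with 3 changes of sign on centring and 4 on quantile normalization. Of 16 serpins, 12 were lower and 4 higher, with 1 change of sign on centring and 3 on quantile normalization. Serpina1c, an antiprotease of the alpha-1 antitrypsin family, stood at 0.08, -0.44, -0.31 and -0.32 in subtype A and at 2.02, 1.85 and 2.31 in the control. In a list of 23 secreted liver proteins, 2 of them serpins counted above, 20 were lower and 3 higher, with 2 changes of sign on centring and 1 on quantile normalization. The 3 that rose were Serpina7, Igfbp1, which binds insulin-like growth factors, and Inhba, a subunit of activin. Inhba stood at 0.32, 0.22, 1.60 and 0.82 in subtype A and at -1.58, -1.67 and -1.80 in the control. Igfals, which keeps insulin-like growth factors in the blood, differed by -2.29 SD.

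Bile acid genes were lower in 22 of 24 cases, with 1 change of sign on centring and 2 on quantile normalization. Slc10a1, the sodium-dependent bile acid importer, stood at -0.10, -0.34, -0.37 and -0.27 in subtype A and at 2.02, 2.35 and 1.84 in the control. Cyp27a1, of the alternative synthesis route, differed by -2.02 SD, and its call was lost after quantile normalization (adjusted p = 0.505). The 2 that rose were the exporters Abcb1a and Abcc4. Abcc4 stood at -0.61, 0.02, 1.71 and 0.51 in subtype A and at -1.41, -1.79 and -1.66 in the control, so it was high in replicate 3 and much less so in replicate 1.

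Acute-phase genes varied among the controls themselves. Of 16, 14 were lower and 2 higher, while after centring only 5 were called lower and 2 higher. Saa1, serum amyloid A, which lies outside the naming rule and was chosen after its values were seen, stood at -0.27, -0.32, -0.30 and -0.33 in subtype A and at -0.31, 1.22 and 3.60 in the control. Control replicate 1 was thus at the subtype A level and the groups overlapped. Its difference of -1.81 SD (adjusted p = 0.00508) was -2.71 SD without control replicate 1 and -0.76 SD without control replicate 3, and the call was lost on centring (-0.02 SD, adjusted p = 0.97). Orm1, the plasma protein orosomucoid, stood at -0.15, -0.41, -0.30 and -0.35 in subtype A and at 0.70, 2.06 and 2.94 in the control, and its call was also lost on centring (-0.42 SD, adjusted p = 0.18). The 2 that rose were Cd14 and Socs3, an inhibitor of cytokine signalling, at -0.20, 1.81, 0.67 and 0.36 in subtype A and at -1.69, -1.44 and -1.69 in the control.

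**Figure D3:**
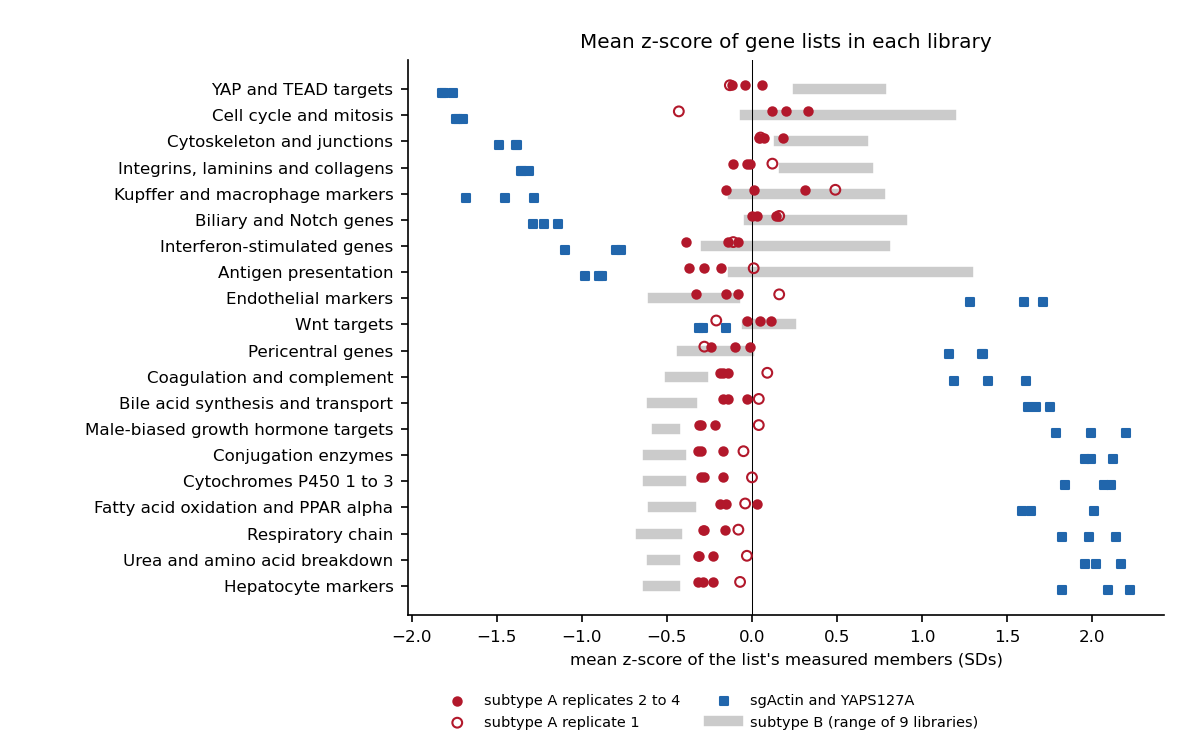
Mean z-score of the measured members of each list (horizontal axis, SDs) in subtype A replicates 2 to 4 (filled circles), subtype A replicate 1 (open circle), sgActin and YAPS127A (squares) and the range over 9 subtype B libraries (grey bar). YAP and TEAD targets averaged -0.13 to 0.06 in subtype A and -1.82 to -1.76 in the control. Their median rose under every scaling tried, though centring could not have lowered it.

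Targets of YAP and TEAD, the pathway that the control construct activates, were higher in subtype A. All 19 measured targets, of 64 in the list, were called higher (median 1.83 SD), beside 41.7% of all genes. Centring raises every difference, so all 19 staying called there, at a median of 3.62 SD, adds no support. After quantile normalization 11 were called higher, 1 member having changed sign. Without subtype A replicate 1, 18 were called. The list mean was -0.13, 0.06, -0.04 and -0.12 in subtype A and -1.76, -1.82 and -1.81 in the control, and 0.27 to 0.76 in subtype B. The libraries labelled with activated YAP were therefore the lowest for these targets.

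Ankrd1, a cardiac ankyrin repeat protein widely used as a YAP readout (chromosome 19, 36111961 to 36120099), stood at 0.34, -0.22, -0.78 and -0.55 in subtype A and at -1.62, -1.61 and -1.61 in the control. It differed by 1.31 SD (SE 0.34, adjusted p = 0.00165), and the call was lost after quantile normalization (adjusted p = 0.37). The subtype A values were spread over more than 1 SD, and the control values were nearly equal. Amotl2, a target that feeds back on YAP (chromosome 9, 102716672 to 102733418), stood at -0.34, -0.10, -0.12 and -0.02 in subtype A and at -1.74, -1.61 and -1.73 in the control (1.55 SD, adjusted p = 0.00106), and its call was also lost after quantile normalization (adjusted p = 0.135). Ajuba, a scaffold that restrains the kinases upstream of YAP, differed by 2.14 SD, and Fat1, a giant cadherin, by 2.39 SD. The TEAD factor genes rose too. Tead1 stood at -0.02, 0.27, 0.00 and -0.18 in subtype A and at -1.87, -2.00 and -2.02 in the control, Tead2 differed by 1.75 SD and Tead4 by 2.05 SD.

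Actg1, the gamma-actin gene, stood at 0.14, 0.22, 0.10 and -0.02 in subtype A and at -1.92, -2.02 and -2.03 in the control. Its mean was 0.11 ± 0.10 (SD, n = 4) in subtype A. The labels do not say which actin gene the guide targets, so this gene does not check it. Genes of the cytoskeleton and cell junctions were higher in 38 of 44 cases, lower in 5 and not called in 1, with 1 change of sign on quantile normalization. Myh9, non-muscle myosin, stood at 0.44, 0.12, 0.54 and 0.12 in subtype A and at -2.08, -2.05 and -1.93 in the control. Pls1, an actin bundling protein, differed by 2.63 SD. Of 7 annexin and S100 genes, 6 were higher and 1 lower, with no change of sign, though on centring only the lower member could change. Anxa2, a membrane-binding annexin, stood at 0.08, 0.41, 0.71 and 0.34 in subtype A and at -2.01, -2.08 and -2.07 in the control.

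Genes of bile duct cells and the Notch pathway were higher in 21 of 26 cases, lower in 4 and not called in 1, with 2 changes of sign on quantile normalization. All 6 measured cholangiocyte markers were higher (median 1.76 SD). Their mean was 0.40, -0.12, -0.07 and -0.22 in subtype A, highest in replicate 1, and -1.65, -1.70 and -1.72 in the control. Spp1, osteopontin (chromosome 5, 104435118 to 104441050), stood at 1.09, -0.32, 0.55 and -0.05 in subtype A and at -1.79, -1.79 and -1.78 in the control (2.11 SD, adjusted p = 9.85e-05). Sox9, a transcription factor of bile duct and progenitor cells, stood at 0.78, -0.37, 0.11 and -0.17 in subtype A and at -1.88, -1.75 and -1.86 in the control. Epcam, an epithelial adhesion protein, stood at 0.41, -0.69, -0.34 and 0.02 in subtype A and at -1.31, -1.50 and -1.52 in the control. Its difference of 1.30 SD (adjusted p = 0.0163) was not called with array weights (adjusted p = 0.0604) or after quantile normalization (adjusted p = 0.316). Replicate 1 was the highest subtype A library for Spp1, Sox9 and Epcam. Bicc1, an RNA-binding protein, differed by 1.86 SD. Pkhd1, the fibrocystin of cilia, differed by 1.65 SD and lost its call after quantile normalization (adjusted p = 0.112).

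Progenitor and oncofetal genes were uneven. Of 12, 8 were higher, 1 lower and 3 not called. No member changed sign under either scaling, though on centring only the lower member could. Gpc3, a surface proteoglycan of fetal liver and liver cancer, stood at 1.00, -0.05, 0.40 and -0.02 in subtype A and at -1.79, -1.80 and -1.82 in the control. Sox4, a transcription factor of progenitor cells, stood between 0.04 and 0.17 in subtype A and between -1.99 and -1.92 in the control. Afp, alpha-fetoprotein, stood at -0.21, -0.18, -0.06 and -0.14 in subtype A and at -1.22, -1.18 and -1.26 in the control, with no overlap. It was not called (1.07 SD, SE 0.58, adjusted p = 0.0838) in the fit that pools the spread with subtype B, where it ran from -0.60 to 2.51. Afp was called in a fit of only the 2 groups (adjusted p = 1.52e-05). It was also called on centring (adjusted p = 0.000405), which raises every difference. H19, an imprinted long RNA, stood at -0.01, -0.29, -0.18 and -0.33 in subtype A and at -0.35 in each control library (0.15 SD, adjusted p = 0.175). The deposited z-scores of H19 sum to -3.85 over the 16 libraries, so the 1 further library of the scaling, not analysed here, stood near 3.85 and sets most of the SD in which this difference is expressed. That library stood above 3 at 3 of the 1659 genes. On centring H19 was called (1.93 SD, adjusted p = 2.84e-10), on a scale that shifts every difference upward. The lowered member was Tff3, a secreted trefoil peptide, at -0.02, -0.49, -0.13 and -0.40 in subtype A and at 0.42, 0.89 and 3.58 in the control. Its difference of -1.89 SD was -0.91 SD without control replicate 3, and its call was lost on centring (adjusted p = 0.836) and on quantile normalization (adjusted p = 0.0915).

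The measured Wnt targets, 10 of 52 in the list, did not move in 1 direction. Of these 10, 6 were higher and 4 lower, with no change of sign under either scaling. Cyp1a2 and Cyp27a1, both named above, were among the lower ones. Glul, Lgr5, Notum, Nkd1 and Tbx3 were not among the 1659 genes, so the pathway could be followed only in part. Axin2 (chromosome 11, 108920349 to 108950783) stood at -1.08, -0.10, -0.29 and 0.37 in subtype A and at -1.47, -1.42 and -1.49 in the control. Its difference of 1.19 SD (adjusted p = 0.0158) was not called without subtype A replicate 4 (adjusted p = 0.0508) or after quantile normalization (adjusted p = 0.325). Replicate 1 lay close to the control. Ccnd1, cyclin D1, stood at -0.46, 0.33, 0.61 and 0.48 in subtype A and at -1.66, -1.93 and -1.46 in the control. Myc, a growth transcription factor, differed by 2.39 SD.

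Cell cycle genes were higher in 40 of 41 cases (median 1.92 SD). No member changed sign under either scaling, though on centring only the lower member could. The list mean was -0.43, 0.33, 0.12 and 0.20 in subtype A and -1.70, -1.74 and -1.73 in the control, so replicate 1 was the lowest subtype A library. Mki67, the proliferation antigen Ki-67 (chromosome 7, 135689784 to 135716361), stood at -0.54, 0.36, 0.07 and 0.18 in subtype A and at -1.90, -1.89 and -1.92 in the control (1.92 SD, adjusted p = 4.68e-06). Top2a, the topoisomerase of dividing cells, stood at -0.64, 0.34, -0.03 and 0.15 in subtype A and at -1.86, -1.85 and -1.86 in the control. Cdkn1a, the p21 inhibitor of cyclin-dependent kinases, rose as well, by 2.60 SD. The member that fell was Mcm10, a DNA replication factor, at -0.28, -0.32, -0.45 and -0.40 in subtype A and at 2.45, 2.13 and 1.60 in the control.

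Matrix genes were higher in 37 of 44 cases, lower in 5 and not called in 2, with 1 change of sign on quantile normalization. Col1a1, fibrillar collagen I, stood at 0.30, -0.55, 0.29 and -0.01 in subtype A and at -1.72, -1.80 and -1.80 in the control. Col3a1, collagen III, stood at 0.93, -0.65, -0.30 and 0.47 in subtype A and at -1.72, -1.90 and -1.86 in the control, and its call was lost after quantile normalization (adjusted p = 0.0878). Nid1, a basement membrane linker, differed by 2.50 SD. Lama3 and Lama1, both laminin chains, were among those that fell. Lama1 stood at -0.32, 0.13, -0.15 and 0.20 in subtype A and at 1.91, 1.83 and 2.22 in the control, and its call was lost on centring (adjusted p = 0.202) and on quantile normalization (adjusted p = 0.59).

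Markers of other cell types moved with these lists. Of 17 Kupffer cell and macrophage markers, 16 were higher and 1 lower (median 1.69 SD). None of these markers changed sign, though on centring only the lower member could, and after quantile normalization 8 were called higher. Their mean was 0.49, 0.01, 0.31 and -0.15 in subtype A and -1.68, -1.45 and -1.28 in the control. Mpeg1, a pore-forming protein of macrophages, stood at 0.87, 0.15, 0.93 and -0.22 in subtype A and at -2.38, -1.73 and -1.50 in the control. The member that fell was Clec4f, the lectin that defines resident Kupffer cells, at -0.13, 0.16, -0.03 and 0.10 in subtype A and at 1.15, 2.01 and 2.57 in the control. Its call was lost on centring (adjusted p = 0.681) and on quantile normalization (adjusted p = 0.497). Of 8 endothelial markers, 7 were lower and 1 higher, with 1 change of sign on quantile normalization, after which 1 was called. Kdr, the VEGF receptor, stood at -0.02, -0.05, -0.28 and -0.01 in subtype A and at 2.19, 1.86 and 2.00 in the control. The one that rose was Cd34, a surface marker of capillary endothelium, at 0.67, -0.49, -0.28 and -0.12 in subtype A and at -1.74, -1.90 and -1.82 in the control. Both lost their calls after quantile normalization (adjusted p = 0.419 and 0.0945). Stellate cell and fibroblast markers split into 5 higher and 6 lower of 11, with no change of sign. The lymphocyte, neutrophil and erythroid lists had 1 measured member each, so those cells could not be followed. The part of cell composition in the hepatocyte, biliary and matrix results was not tested.

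Immune genes moved less evenly. Of 18 chemokine, cytokine and receptor genes, 14 were higher, 3 lower and 1 not called. None changed sign, though on centring only the 3 lower genes could. Of 15 interferon-stimulated genes, 9 were higher, 2 lower and 4 not called, with a median of 0.92 SD that turned to -0.05 SD after quantile normalization, where 6 members changed sign. In antigen presentation, 5 of 13 genes were higher, 2 lower and 6 not called, with 1 change of sign on quantile normalization. The 6 not called were class II genes and were named after their values were seen. H2-Ab1, a class II chain, stood at 0.16, -0.66, -0.17 and -0.57 in subtype A and at -1.32, -1.30 and -1.36 in the control (1.02 SD, adjusted p = 0.0590). Ciita, the master regulator of the class, stood at -0.17, -0.65, -0.21 and -0.45 in subtype A and at -1.29, -1.18 and -1.27 in the control (0.88 SD, adjusted p = 0.109). Cd74, the class II chaperone (0.88 SD), H2-Eb1 (0.99 SD), H2-DMa (0.92 SD) and H2-DMb1 (0.91 SD) had values of the same kind. In all 6 the groups did not overlap. The spread of subtype B enters the fit, and H2-Ab1 ran there from -0.38 to 2.01. In a fit of only the 2 groups all 6 were called (adjusted p 0.000315 to 0.00214). They were also called on centring (adjusted p 7.35e-05 to 0.000218), which raises every difference.

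In all, 45 genes were not called, each with a subtype A mean above the control and none with an unadjusted p under 0.05. Their median difference was 0.81 SD (range 0.15 to 1.34), and 35 of the 45 did not overlap between the groups. A fit of only the 2 groups called 1648 genes. Conversely, 13 called genes overlapped. Rdh9, a retinol dehydrogenase chosen after its values were seen, was 1 of them, at -1.77, 1.19, -0.01 and 1.19 in subtype A and at -1.31, -1.52 and -1.58 in the control. Its subtype A replicate 1 was under every control library, while the other 3 were above them all.

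Growth factor genes went both ways, and 10 of 17 ligands and receptors were higher and 7 lower, with no change of sign. Among the receptors that fell were Egfr and Lifr. Egfr, the epidermal growth factor receptor, stood at -0.11, -0.33, -0.34 and -0.34 in subtype A and at 1.78, 2.13 and 2.25 in the control. Lifr, the receptor of Lif, stood at 0.05, -0.34, -0.39 and -0.29 in subtype A and at 1.81, 1.91 and 2.43 in the control, while Lif itself was among the largest rises. Of 62 solute carriers, 18 were higher and 44 lower, with 3 changes of sign on centring and 5 on quantile normalization. Of 19 NRF2 and antioxidant genes, 5 were higher and 14 lower, with 3 changes of sign on centring and 2 on quantile normalization. Akr1b7, an aldo-keto reductase, was among those that rose, at -0.20, 0.49, 1.34 and 1.27 in subtype A and at -1.57, -1.65 and -1.50 in the control. Of 14 iron, copper and heme genes, 13 were lower, with 2 changes of sign on centring and 2 on quantile normalization. Of 18 stress genes, 12 were higher and 6 lower, with no change of sign, though on centring only the 6 lower genes could change. No cytosolic ribosomal protein gene was among the 1659.

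Subtype A was then set against subtype B, the other tumour class, which was scaled with it and shares the same control. Subtype A was higher than subtype B at 668 genes (40.3%) and lower at 346 genes (20.9%). After libraries were centred on their median, the split was 116 higher and 472 lower, so the direction of this comparison as a whole depends on the scaling. Of the 922 genes lower than control in subtype A, 651 were higher in subtype A than in subtype B and 0 lower. Of the 692 genes higher than control, 17 were higher and 334 lower in subtype A than in subtype B. At the genes called against control, subtype A thus lay, on the deposited scale, between control and subtype B more often than beyond subtype B.

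**Figure D4:**
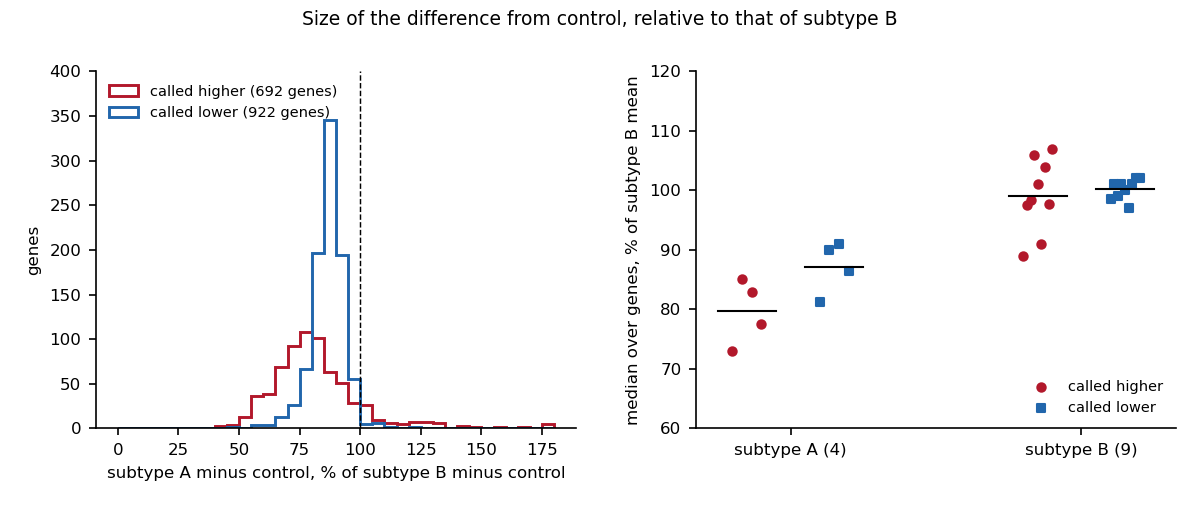
Left, number of genes (vertical axis) by the subtype A minus control difference as a percent of the subtype B minus control difference, with values beyond the right edge drawn in the last bin. Right, the median of that percent over genes in each library of subtype A (4) and subtype B (9), with a line at the group's mean. Subtype A libraries lay at 73.0 to 85.1% for the higher genes and at 81.3 to 91.0% for the lower genes.

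As a percent of the subtype B minus control difference, the subtype A minus control difference had a median of 79.1% over the 692 higher genes (quartiles 70.5 and 89.1%) and 87.0% over the 922 lower genes (quartiles 83.3 and 90.7%). Both differences use the same 3 control libraries. By library, the higher genes stood at 73.0, 85.1, 83.0 and 77.6% in subtype A replicates 1 to 4, against 88.9 to 107% in subtype B. The lower genes stood at 81.3 to 91.0% in subtype A, against 97.1 to 102% in subtype B. Replicate 1 was the lowest on both, and no subtype A library reached the lowest subtype B library. On centring the medians were 82.8% for the higher and 86.3% for the lower genes.

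No difference between lists in their distance from subtype B was tested. Of the 13 hepatocyte markers, 8 were higher in subtype A than in subtype B and 0 lower, beside 651 of all 922 lowered genes. On centring 3 of the 13 were higher. Of the 55 respiratory chain genes, 52 were higher and 0 lower, and on centring 1 was higher and 1 lower. Of the 61 urea and amino acid genes, 52 were higher and 0 lower, and on centring 7 were higher. Of the 19 YAP and TEAD targets, 0 were higher and 13 lower than in subtype B, beside 334 of all 692 raised genes, and 16 were lower on centring. Ankrd1 differed by -0.80 SD from subtype B and by 1.31 SD from the control, and the first call was lost without subtype A replicate 3 (adjusted p = 0.0723) or replicate 4 (adjusted p = 0.0615). Slc27a1 was -1.11 SD under subtype B and 1.42 SD above the control. Cyp27a1 was 0.59 SD above subtype B, 0.32 SD on centring and 1.09 SD on quantile normalization. Gapdh was 0.51 SD above subtype B, 0.24 SD on centring and 0.78 SD on quantile normalization. Both were under the control.

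Beyond both the control and subtype B lay 17 genes, a set seen after the values were known: A430089I19Rik, Abcb1a, Akr1b7, Btg3, Cd14, Cfap44, Folh1, Frmpd1, Gpnmb, Lif, Lrrc39, Pla2g5, Prom1, Serpina7, Tgm2, Vnn1 and Wfdc2. Every subtype A library was above every subtype B library in 3 of them, A430089I19Rik, Gpnmb and Wfdc2. Over the 18 libraries with counts, these 3 had mean normalized counts of 3.55, 2.15 and 6.19. Of the 17, only Abcb1a, Btg3, Lrrc39, Serpina7, Tgm2 and Vnn1 reached a mean of 10. Gpnmb differed from subtype B by 1.58 SD (SE 0.27, adjusted p = 0.000787), and subtype B ran from -0.70 to 0.49. Wfdc2 differed by 1.01 SD (SE 0.16, adjusted p = 0.000435), with subtype B from -0.33 to 0.49. Prom1 differed by 0.91 SD (SE 0.18, adjusted p = 0.00145), and its lowest subtype A library, at 0.61, lay under the highest subtype B library, at 0.78. Folh1, a folate-releasing carboxypeptidase, stood at 0.92, 2.21, 0.33 and 0.88 in subtype A and at -1.27, -1.27 and -1.23 in the control. Cd14 differed from subtype B by 1.05 SD, and by 0.66 SD without subtype A replicate 3. Abcb1a differed by 0.48 SD, and that call was lost without replicate 2 (adjusted p = 0.077) or replicate 4 (adjusted p = 0.0921) and on centring (adjusted p = 0.386). Serpina7 differed by 0.97 SD and lost its call on centring (adjusted p = 0.0614). A430089I19Rik, an uncharacterised gene, stood at 3.60, 0.08, 0.32 and 0.78 in subtype A and at -0.58 in each control library, with replicate 1 far above the rest. Its difference from the control of 1.77 SD was 0.97 SD without that library, and its call was lost when z-scores were computed again over the 2 groups (1.19 SD, adjusted p = 0.0529). Its difference from subtype B of 1.48 SD was 0.68 SD without replicate 1.

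Replicate 1 also set apart a few matrix genes, named after their values were seen. Col6a3, a chain of collagen VI, stood at 1.30 in subtype A replicate 1 and at -0.81, -0.59 and 0.00 in the others, and at -1.71, -1.70 and -1.75 in the control, and its call was lost after quantile normalization (adjusted p = 0.171). Sparcl1, a matrix glycoprotein, stood at 1.17 in replicate 1 and at -1.17, -1.05 and -0.01 in the others, and at -0.67, -1.20 and -1.34 in the control. Sparcl1 was not called (0.81 SD, adjusted p = 0.193), and its difference was 0.33 SD without replicate 1. It was called on centring (adjusted p = 0.000846), which raises every difference. Over all genes, the gap of 1 library to the nearest of the other 3 passed Dixon's value at 80 genes for replicate 1, which was the highest in 61 of them, and at 22, 10 and 7 genes for replicates 2, 3 and 4.

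Other libraries of the series gave counts for the same genes, with none of the libraries above in common. They hold 11 libraries labelled as induced (5 skip1, 2 skip2 and 4 dN90) and 7 without that label (2 wild type, 3 skip1 alone and 2 skip2 alone), as the depositors' normalized counts. The skip1 alone and skip2 alone libraries are also labelled with a beta-catenin isoform, so this split is not presence against absence of an isoform. Of the 1659 genes, 1156 had a mean of at least 10 over those 18 libraries. Every induced library was above every library without at 148 of them (12.8%) and below at 307 (26.6%). Of the 326 genes among these that were higher in subtype A than in the control, 143 (43.9%) were above in every induced library and 0 below. Of the 808 that were lower in subtype A, 307 (38.0%) were below and 0 above. The depositors' name for the 1659 genes calls them differentially expressed and lists skip1 and skip2 beside the subtypes. Such a selection can fix a shared direction in advance, so the counts are a description and no support. Genes higher in subtype A were scarce in normal liver, with a median normalized count in wild type of 2.79 and 76.7% of them under 10, while the median was 67.9 for the lower genes and 8.03% of them were under 10.

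**Figure D5:**
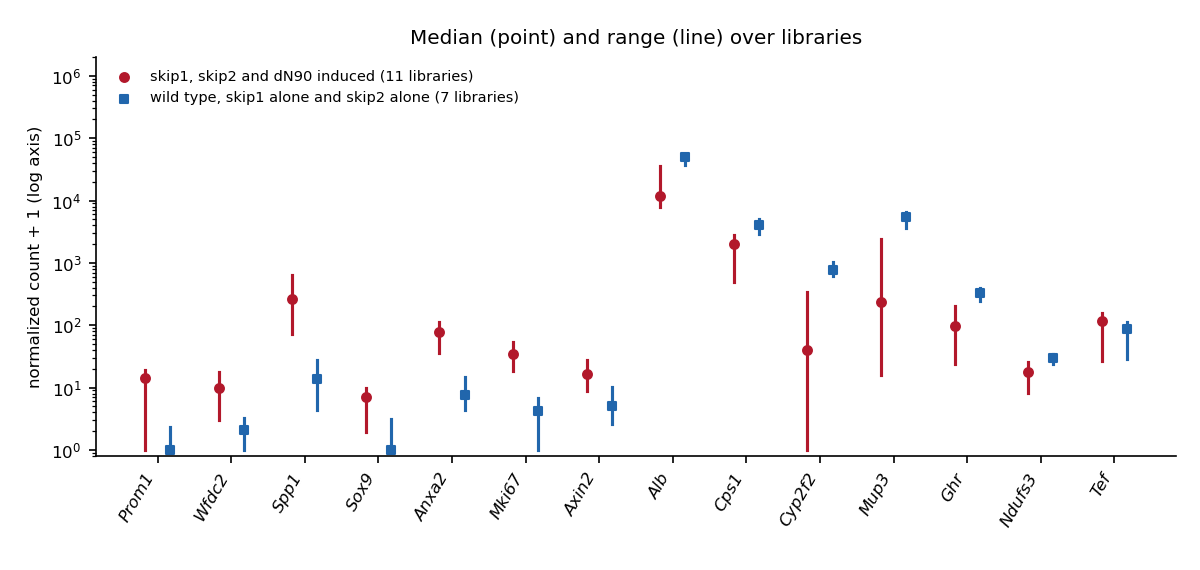
Median (point) and range (line) of the normalized count plus 1 (vertical axis, log scale) of selected genes in 11 induced libraries (circles) and 7 libraries of wild type, skip1 alone and skip2 alone (squares). Spp1 ran from 71.5 to 632 in induced libraries and from 3.33 to 26.6 in the others, while Tef overlapped fully.

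Spp1 had a lowest, median and highest normalized count of 71.5, 261 and 632 in induced libraries, against 3.33, 12.7 and 26.6 in libraries without that label. Gpc3 had 58.6, 112 and 240 in induced libraries, against 0, 1.13 and 2.13. Alb had 7940, 11600 and 35400 in induced libraries, against 36700, 50200 and 54500. Each of these 3 genes was separated without overlap. Mup3 ran from 14.8 to 2450 with a median of 236 in induced libraries, against 3580 to 6530 with a median of 5490. Prom1 overlapped, with 0 to 18.2 (median 13.2) in induced libraries, against 0 to 1.34 (median 0). Tef, 1 of the genes with the largest falls in subtype A, ran from 25.7 to 154 (median 118) in induced libraries, against 27.6 to 113 (median 86.8), so the groups were not separated and the induced median was the higher. Ngef likewise had a median of 28.2 in induced libraries, against 15.6 in those without.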

How the data were processed

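Mouse liver libraries were profiled by RNA sequencing, and 2 deposited tables were used. The first holds a score per gene, a z-score that the authors computed before deposit for 1659 selected genes. From the values, the 16 libraries used here were scaled together with 1 more, 17 in all, apart from the other 18. The second holds the authors' deposited normalized counts, a signal that is never negative, for 18 libraries and 14086 genes. The submitters' processing notes name FastQC, STAR, RSEM, DESeq2 and mm10, and no version, setting or strand option is given in the sources used here.

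The test of the z-scores was limma (3.58.1, R 4.3.3) with a coefficient for each group (subtype A, subtype B, sgActin and YAPS127A), no trend, two-sided tests and Benjamini-Hochberg adjustment over all 1659 genes at 0.05. The test was checked on simulated data of independent noise in which most genes did not change. Nearly all real genes were called, so that check does not cover this setting. Replicates are numbered as in the titles. Members and the 49 gene lists were chosen with earlier results of these data known, and lists were only counted. Named genes followed a rule: 12 called, non-overlapping genes per direction with the largest difference, up to 4 called members per list and direction, and 32 fixed genes, of which 17 were measured. The rule selects 261 genes, and the text names part of them; some are not reported here. Of the symbols, 1653 (99.6%) matched the reference names. Loci are from GENCODE on mm10. In the normalized counts, a mean of 10 or more was required. All columns of per-sample values were used or mapped.

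Alternatives were a fit of only the compared groups, array weights, a robust prior, centring on the median, quantile normalization, z-scores computed again, filters at 10 and 50 normalized counts, a replicate block, and leaving out each library. Centring of the percent of the subtype B difference, and list counts under other scalings and without subtype A replicate 1, were added after the data were seen.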

Additional observations from a re-analysis of the deposited data

Results flagged for a closer look

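Among 112 named genes and 124 groups of 4 to 10 libraries tested, 11 had 1 library far from the others, and chance alone flags about 1 group in 20. Of the 11, 8 were subtype A replicate 1. That library was higher than the other 3 for 4 genes that fell in subtype A: Ahcyl2 at -0.19 (the others -0.61 to -0.54), Arg1 at -0.16 (-0.41 to -0.38), Ndufs3 at -0.06 (-0.36 to -0.33) and Egfr at -0.11 (-0.34 to -0.33). It was lower than the other 3 for 4 genes that rose: Igfbp1 at -0.08 (the others 0.88 to 0.90), Nid1 at 0.13 (0.61 to 0.70), Ccnb2 at -0.47 (0.37 to 0.54) and Slc1a4 at -0.57 (0.43 to 0.56). In these 8 genes it thus lay on the control's side of its group. The other flags were Thrsp in replicate 3 at -0.45 (the others -0.42), Kdr in replicate 3 at -0.28 (-0.05 or above) and Per3 in replicate 2 at -0.52 (-0.89 to -0.84). What sets replicate 1 apart was not tested.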

How the results depend on the processing

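Of 1810 values of 112 named genes under these alternatives, 1747 kept their direction and side of the threshold, 33 lost their call and 30 gained one. The naming rule selects mostly called genes, those with the largest differences among them, and centring cannot change the sign of a raised gene. Stable values are thus favoured by the choice of genes, and these counts do not measure how all tested genes hold up. Called against the control were 1614 genes. Leaving out 1 library gave 1596 to 1608 (677 to 686 higher, 919 to 922 lower). Centring left 1439 (739 higher, 700 lower). Quantile normalization left 1079 (479 higher, 600 lower), and the cause was not tested. The filter at 10 normalized counts left 327 higher, and that at 50 left 510 called (59 higher, 451 lower), with fewer genes tested. Against subtype B, 1014 genes were called, 588 on centring (116 higher), 444 on quantile normalization (249 higher, 195 lower), 167 lower with the filter at 10, and 397 with that at 50 (374 higher, 23 lower). Leaving out 1 subtype A library gave 764 to 972 (517 to 650 higher, 246 to 326 lower). The median percent of the subtype B difference for higher genes was 84.6% with the filter at 50 and 77.5 to 82.3% without 1 library (85.9 to 89.1% for lower genes). Of 455 genes whose induced libraries were all above or all below the others, 242 were left with the filter at 50 (37 higher and 202 lower in subtype A). With no filter, 236 of the genes higher in subtype A were separated. Leaving out 1 library gave 456 to 590 (143 to 170 and 307 to 414).

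With a replicate block on the title numbers, 1646 genes were called, and Rdh9 was not (1.27 SD, adjusted p = 0.0723). Same-numbered subtype A and control libraries had correlations of deviations of -0.04, 0.065 and -0.007, so the numbers do not pair the samples. How deeply the z-scored libraries were sequenced is not known, so the precision of low genes is not known either.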
